A study of Mus musculus with 10 samples.

Results

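Id1, Id2, Id3, Smad6, Smad7, Ski, Skil, Tgfbi and Tgif1 are 9 genes of the transforming growth factor beta (TGF-beta) and bone morphogenetic protein (BMP) pathway, taken by symbol from the 38087 genes whose reads were counted in a temperature study of mouse fibroblasts. All 9 were found in both tables of the study, and all 9 were expressed. The cells were wild-type NIH3T3, an established mouse fibroblast line with no added transgene or agent. After seeding and 4 h at 37 °C, cultures spent 16 h at either 38 °C or 33 °C. Cells from 38 °C were then moved to 33 °C, called the downshift here, and cells from 33 °C were moved to 38 °C, called the upshift. Samples were taken 0, 1, 3, 6 and 9 h after each move, so that each course has 5 samples and the study 10, with 1 sample per time.

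Ligands of the TGF-beta and BMP families bind pairs of receptor kinases at the cell surface, and the receptors phosphorylate SMAD proteins, which enter the nucleus with SMAD4 and act on target genes. Several targets of the pathway code for proteins that dampen it, and these form its negative feedback. In fibroblasts the TGF-beta branch is known for driving collagen, other matrix proteins and contractile proteins, and the BMP branch for driving the Id genes. Of the genes described here, Id1, Id2 and Id3 code for helix-loop-helix proteins that have no DNA-binding region and hold their partners away from DNA. Smad6 and Smad7 code for the inhibitory SMADs, which block signalling at the receptors. Ski, Skil and Tgif1 code for corepressors that bind SMADs on target genes. Tgfbi codes for a secreted matrix protein that TGF-beta induces, and it is a target of the pathway rather than a known brake on it.

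Total RNA without ribosomal RNA was sequenced, and the study counted reads in exons, mostly of mature RNA, and reads in introns, of precursor RNA, separately. Each time point comes as 2 count columns that carry the number of a series, 5 and 11 in the downshift and 2 and 13 in the upshift. The labels do not explain these numbers, and nothing says that the columns are separate cultures. Exon columns held 22403625 to 48004854 reads and intron columns 15313374 to 25233405. Series 10 has columns at 1 and 3 h of the downshift alone and entered 1 alternative. For tests the columns of a time point were summed into 1 sample. Each result was also computed within series 2 and 5 alone, called the low-numbered pair here, and within series 11 and 13 alone, the high-numbered pair, because the columns of a sample differed by far more than counting noise for some of these genes. All 10 fibroblast markers were expressed. Their summed level was 5920 to 7690 RPKM in the columns of series 5 and 11 and 7965 to 9888 RPKM in those of series 2 and 13. S100a4 alone averaged 4898 RPKM and made up most of these sums. RPKM stands for reads per kilobase of exon, or of intron for intron reads, scaled for sequencing depth. The 6 epithelial markers summed to 11.7 to 27.8 RPKM in downshift columns and 14.0 to 44.2 RPKM in upshift columns, of which Krt14 averaged 23.9 RPKM and Krt5 was at 0. Adipocyte markers, led by Lpl, summed to 5.70 to 11.5 RPKM in the downshift and 8.90 to 14.0 RPKM in the upshift. Blood markers summed to 1.109 to 2.53 RPKM in the downshift and 0.656 to 2.11 RPKM in the upshift, with Cd3e at 0. The endothelial, neuron and muscle lists stayed at or under 2.06 RPKM in every column of these series, with Snap25 and Myod1 at 0. The part of these other markers in the results was not tested.

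Promoter sequences bear on these genes because SMADs bind short DNA motifs. RefSeq windows of the GRCm38.p6 build, from 250 bases before to 50 bases after a start site, were found for 6 of the 9 genes. The 3 genes whose change differed between the shifts (below) are shown. Capitals mark GGCGCC, the core of the BMP-type SMAD site, and CAGAC, the SMAD box, which appears as GTCTG where it lies on the other strand. The Id2 window is chr12:25096043-25096342 on the minus strand, the Id3 window chr4:136143572-136143871 on the plus strand and the Tgfbi window chr13:56609336-56609635 on the plus strand.
Id2: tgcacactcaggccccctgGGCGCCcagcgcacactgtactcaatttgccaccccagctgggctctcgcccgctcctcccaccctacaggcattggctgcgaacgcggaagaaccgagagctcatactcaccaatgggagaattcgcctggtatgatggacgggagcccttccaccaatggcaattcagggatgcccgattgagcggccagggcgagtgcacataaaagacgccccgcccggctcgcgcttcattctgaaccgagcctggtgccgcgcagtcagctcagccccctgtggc
Id3: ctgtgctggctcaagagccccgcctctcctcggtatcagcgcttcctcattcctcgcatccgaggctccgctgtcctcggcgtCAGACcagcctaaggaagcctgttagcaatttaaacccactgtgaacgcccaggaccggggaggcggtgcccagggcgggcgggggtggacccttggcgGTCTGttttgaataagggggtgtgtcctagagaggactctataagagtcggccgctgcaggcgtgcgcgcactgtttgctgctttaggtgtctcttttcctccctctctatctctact
Tgfbi: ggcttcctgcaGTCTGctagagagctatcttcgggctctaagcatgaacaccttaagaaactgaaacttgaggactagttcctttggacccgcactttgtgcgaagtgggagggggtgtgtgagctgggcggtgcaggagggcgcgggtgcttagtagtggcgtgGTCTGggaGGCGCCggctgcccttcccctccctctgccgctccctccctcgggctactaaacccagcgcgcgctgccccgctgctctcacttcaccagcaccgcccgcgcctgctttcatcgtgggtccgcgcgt

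The Id2 window held GGCGCC from -231 to -226 relative to the RefSeq start site and no CAGAC. The Id3 window held CAGAC from -167 to -163 and from -68 to -64 and no GGCGCC. The Tgfbi window held both motifs, GGCGCC from -77 to -72 and CAGAC from -239 to -235 and from -85 to -81. Among the other genes, a window of Ski held GGCGCC from -220 to -215, 3 of the 5 windows of Tgif1 held CAGAC, and the Smad6 window held neither. Both strands were searched, and these motifs are common. GGCGCC was present in 11.9% and CAGAC in 49.6% of 32851 mouse windows of the same length. TGACG, a short site of the factor CREB, was present in 20.8% of windows and, here, in that of Id3, where, on the other strand, it overlaps the CAGAC farther from the start site. GAANNTTC, a pair of heat shock element units, was present in 7.86% of windows and in none of those of the 6 genes. A match is a description of the letters and not a bound site. The Id2 and Id3 windows lie wholly inside these genes as placed by the GENCODE M21 annotation. Their positions before the RefSeq start site are therefore not outside the annotated gene.

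The exon levels of the 9 genes spanned a wide range. Over the 20 columns of the 4 complete series, Id1 had a median of 72.3 RPKM (45.0 to 89.4) and Id3 of 63.7 RPKM (32.6 to 92.6). Tgfbi followed with 15.7 RPKM (4.32 to 34.7), Ski with 15.4 RPKM (12.6 to 20.6) and Id2 with 15.3 RPKM (11.4 to 21.8). Tgif1 had 10.6 RPKM (8.08 to 15.3), Smad7 10.4 RPKM (5.92 to 18.5), Skil 4.55 RPKM (2.31 to 8.21) and Smad6 1.38 RPKM (0.786 to 4.03). The ranges of neighbours in this order overlapped in every case. Ski varied least, and Tgfbi and Smad6 varied most between columns. The fewest reads behind an exon value were 98, for Smad6, and the most were 8039, for Id3. In bulk RNA, fewer cells with a transcript and less of it in each cell cannot be told apart.

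**Figure D1:**
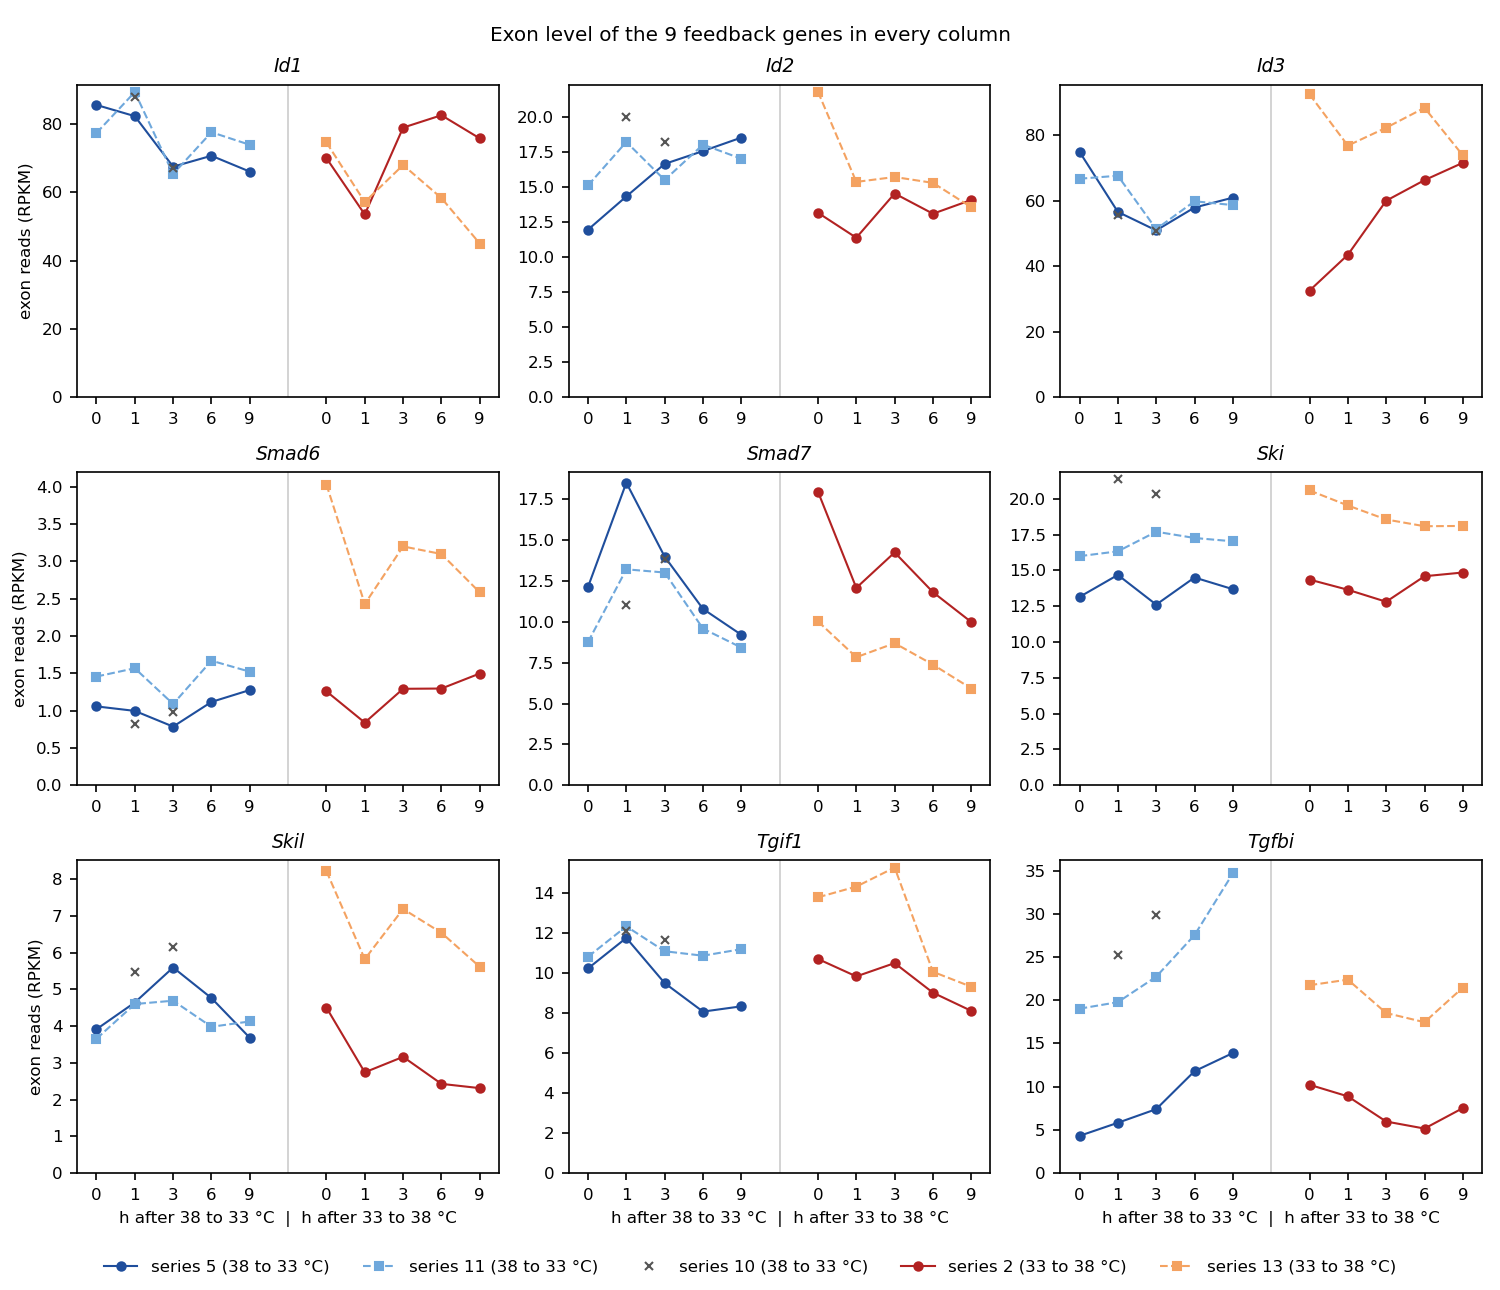
Exon level (RPKM, linear axis from 0) of each gene in every column, with the downshift on the left and the upshift on the right of each panel and hours after the shift on the horizontal axis; lines join the columns of a series, and crosses are the 2 columns of series 10. Tgfbi rises in both downshift series (to 13.9 and 34.7 RPKM at 9 h), and Id3 shows a steep rise in series 2 of the upshift (32.6 RPKM at 0 h, 71.7 RPKM at 9 h) that series 13 does not.

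Each course was fitted with a straight line on log2(h + 1), and the fitted change from 0 to 9 h is given on the log2 scale with its standard error (SE). A gene was called where the p-value of the edgeR quasi-likelihood test, adjusted after Benjamini and Hochberg over all tested genes, was under 0.05. By this rule, after the downshift 32.1% of 10178 tested genes were called (15.9% up and 16.2% down), after the upshift 33.2%, and 46.6% differed between the shifts (downshift minus upshift; 23.7% positive and 22.9% negative). Against that background, 1 of the 9 genes, Tgfbi, was called after the downshift. None was called after the upshift, where 3 of 9 had an unadjusted p under 0.05, as did 4549 of the 10178 genes. The DESeq2 Wald test called 1 of the 9, Tgif1, after the upshift, and 3859 genes in all. Between the shifts 3 of 9 differed, Tgfbi and Id2 with a positive difference and Id3 with a negative one. The median change of the 9 genes was -0.0049 after the downshift, -0.24 after the upshift and 0.18 for the difference, and that of all tested genes was 0.01 in each case.

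Tgfbi, the secreted matrix protein, had the largest change of the 9 genes. Its exon level in series 5 of the downshift was 4.32, 5.83, 7.40, 11.8 and 13.9 RPKM at 0, 1, 3, 6 and 9 h. In series 11 it was 19.0, 19.8, 22.7, 27.5 and 34.7 RPKM at the same times. The level climbed at every step in both series, although the columns of series 11 held between 2.33 and 4.41 times the level of series 5. In the upshift, series 2 had 10.2, 8.89, 5.97, 5.16 and 7.53 RPKM and series 13 had 21.7, 22.4, 18.5, 17.5 and 21.5 RPKM. Both upshift series were lowest at 6 h and higher again at 9 h. Tgfbi rose by 1.04 ± 0.17 (SE) after the downshift (adjusted p = 0.0033), and its upshift change was -0.30 ± 0.17 (adjusted p = 0.205). Without the 9 h sample the upshift change was -0.64, a slope over 0 to 6 h extended to 9 h, and was called (adjusted p = 0.022). Downshift minus upshift, the change was 1.34 ± 0.24 (adjusted p = 0.0018), with 2.29 ± 0.33 within the low-numbered pair and 1.04 ± 0.22 within the high-numbered pair, both called. When 0 h was set against 3, 6 and 9 h together in place of the line, neither the downshift change of Tgfbi (0.75, adjusted p = 0.121) nor the difference (1.06, adjusted p = 0.059) was called.

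Id2 differed between the shifts by the fit over all columns, though not by the same path in each series. In the downshift it had 11.97, 14.3, 16.7, 17.6 and 18.5 RPKM in series 5 and 15.1, 18.2, 15.5, 18.0 and 17.0 RPKM in series 11. In the upshift it had 13.2, 11.4, 14.5, 13.1 and 14.1 RPKM in series 2 and 21.8, 15.4, 15.7, 15.3 and 13.6 RPKM in series 13. The climb was plainest in series 5, and the decline was seen in series 13, where the 0 h column stood above the rest. The Id2 change was 0.34 ± 0.13 after the downshift (adjusted p = 0.068) and -0.24 ± 0.13 after the upshift (adjusted p = 0.170). The difference of 0.58 ± 0.18 was called (adjusted p = 0.0238). Within series 11 and 13 it was 0.71 ± 0.21 (adjusted p = 0.0197) and within the low-numbered pair it was 0.35 ± 0.19 (adjusted p = 0.165). The Id2 call was lost without the 0 h sample of the upshift (0.26, adjusted p = 0.283) and without that of the downshift (0.44, adjusted p = 0.166).

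Id3 ran the other way, and its difference was called within the low-numbered pair and not within the high-numbered pair. In the downshift Id3 had 75.0, 56.7, 51.0, 58.0 and 61.0 RPKM in series 5 and 66.8, 67.7, 51.4, 59.9 and 58.7 RPKM in series 11, lowest at 3 h in both. In the upshift it had 32.6, 43.5, 60.1, 66.4 and 71.7 RPKM in series 2, against 92.6, 76.9, 82.4, 88.5 and 73.9 RPKM in series 13. The 0 h column of series 13 held 2.84 times the level of that of series 2, and at 9 h the columns were nearly level. The Id3 change was -0.28 ± 0.13 after the downshift (adjusted p = 0.116) and 0.31 ± 0.13 after the upshift (adjusted p = 0.096), and the difference was -0.59 ± 0.18 (adjusted p = 0.0237). Within series 2 and 5 the difference was -1.54 ± 0.24 (adjusted p = 0.00079), but within the high-numbered pair it was -0.05 ± 0.20 (adjusted p = 0.871). The upshift change of Id3 was itself larger in series 2 than in series 13, by 1.37 ± 0.23 (adjusted p = 0.0036). By this test of one series against another, 4.32% of all genes were called in the upshift, and Id2 was the other of the 9 (0.76 ± 0.20, adjusted p = 0.042). In the downshift the same test, series 5 minus series 11, called 0% of genes and none of the 9, while 793 genes and 1 of the 9 (Tgfbi, 0.80 ± 0.30) had an unadjusted p under 0.05.

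Id1, the most abundant of the 9, had no called change. Its levels were 85.6, 82.3, 67.5, 70.7 and 66.1 RPKM in series 5 and 77.4, 89.4, 65.4, 77.6 and 73.9 RPKM in series 11 of the downshift. In the upshift they were 70.0, 53.5, 79.0, 82.6 and 75.8 RPKM in series 2, and 74.6, 57.2, 68.0, 58.3 and 45.0 RPKM in series 13. Both upshift series dipped at 1 h, and afterwards series 2 stood above its 0 h level while series 13 stayed below it. Downshift minus upshift, the change of Id1 was -0.27 ± 0.24 (adjusted p = 0.363), with -0.83 ± 0.25 within the low-numbered pair (adjusted p = 0.0226) and 0.40 ± 0.26 within the high-numbered pair (adjusted p = 0.248), so its sign depended on the series. The exons of the Id1 transcript models together cover the whole gene (GRCm38 chromosome 2, 152736251 to 152737410, plus strand, 1160 bases), so no intron reads could be counted for it and its exon reads include any of its intron.

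**Figure D2:**
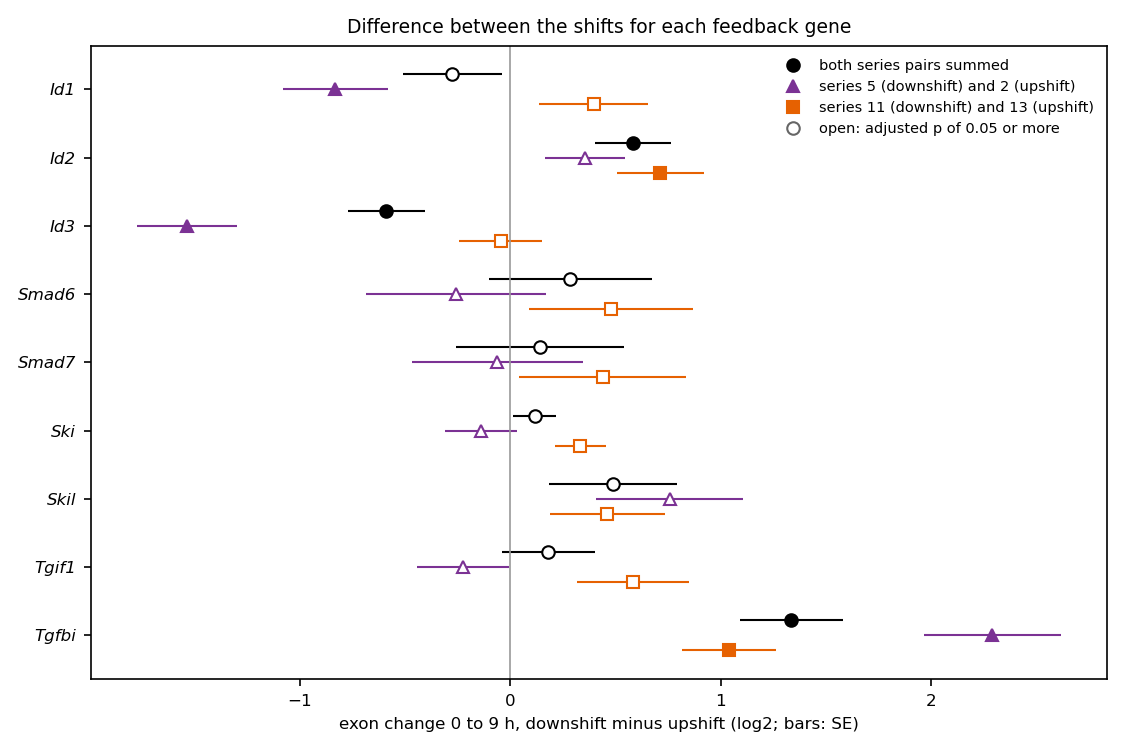
Difference between the shifts (downshift minus upshift) in the fitted exon change from 0 to 9 h on the log2 scale, for each gene (vertical axis), with all columns summed (circles), within series 5 and 2 (triangles) and within the high-numbered pair (squares); bars are SE and filled symbols have an adjusted p under 0.05. Tgfbi lies right of 0 in all 3 fits (1.34, 2.29 and 1.04), while Id3 lies far left within series 5 and 2 (-1.54) and at 0 within the high-numbered pair (-0.05).

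Smad7, the inhibitory SMAD that acts on both branches, had its highest downshift level at 1 h, and its change over the full course was called after neither shift. In the downshift it had 12.1, 18.5, 14.0, 10.8 and 9.21 RPKM in series 5 and 8.76, 13.2, 13.01, 9.58 and 8.42 RPKM in series 11. In the upshift it had 18.0, 12.1, 14.2, 11.8 and 9.98 RPKM in series 2 and 10.0, 7.83, 8.69, 7.38 and 5.92 RPKM in series 13. Both downshift series peaked at 1 h and were below their 0 h level at 9 h, and both upshift series had their highest value at 0 h and their lowest at 9 h. The change was -0.46 ± 0.29 after the downshift (adjusted p = 0.247) and -0.60 ± 0.27 after the upshift (adjusted p = 0.114), and the difference was 0.14 ± 0.40 (adjusted p = 0.792). Without the 0 h sample of the downshift the downshift change of Smad7 was -1.25 (adjusted p = 0.015), a slope over 1 to 9 h extended to 0 to 9 h. The upshift change was called without the 0 h sample of the downshift (-0.62, adjusted p = 0.013) and with every column taken as a library (-0.61, adjusted p = 0.027). The latter fit counts columns of the same sample as separate.

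A quadratic term in log2(h + 1) asked whether a course bent. No gene of the 9 was called after the downshift or the upshift, against 0.285% and 2.05% of all genes in those courses. An unadjusted p under 0.05 (edgeR quasi-likelihood test) was found for 3 and 1 of the 9, and for 1913 and 2073 of all 10178 genes. Smad7 had the strongest bend of the 9 after the downshift, with a quadratic term of -0.23 ± 0.05 (adjusted p = 0.096), where a negative term means a curve that turns downwards. The term was -0.23 with an adjusted p of 0.0158 when every column was taken as a library with its series as a covariate, an analysis that counts columns of the same sample as separate. Skil bent the same way (-0.15 ± 0.05, adjusted p = 0.164) and Id3 the other way (0.09 ± 0.03, adjusted p = 0.199).

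Smad6, the inhibitory SMAD known mainly for the BMP branch, was the least abundant of the 9. It had 1.06, 0.996, 0.786, 1.12 and 1.28 RPKM in series 5 and 1.46, 1.57, 1.09, 1.67 and 1.52 RPKM in series 11 of the downshift. In the upshift it had 1.26, 0.839, 1.29, 1.30 and 1.497 RPKM in series 2 and 4.03, 2.43, 3.199, 3.097 and 2.58 RPKM in series 13. Series 13 stood above every other column, and the ranges of the other 3 series overlapped. Downshift minus upshift, the change of Smad6 was 0.29 ± 0.39 (adjusted p = 0.568).

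The corepressors Ski, Skil and Tgif1 had no called change. Skil, also known as SnoN, had 3.91, 4.64, 5.59, 4.76 and 3.68 RPKM in series 5 and 3.66, 4.60, 4.69, 3.98 and 4.13 RPKM in series 11 of the downshift, highest at 3 h in both. In the upshift it had 4.50, 2.74, 3.16, 2.43 and 2.31 RPKM in series 2 and 8.21, 5.82, 7.18, 6.54 and 5.61 RPKM in series 13, highest at 0 h in both. The upshift change of Skil was -0.49 ± 0.21 (adjusted p = 0.094) and the difference was 0.49 ± 0.31 (adjusted p = 0.213), with 0.76 and 0.46 within the low-numbered and the high-numbered pair. Tgif1, a homeodomain corepressor, ranged from 8.08 to 12.3 RPKM in the downshift and from 8.12 to 15.3 RPKM in the upshift. Its upshift change of -0.44 ± 0.16 just missed the threshold (adjusted p = 0.052), and both upshift series were lower at 6 and 9 h than at the 3 earlier times. Ski was the steadiest, with 12.6 to 17.7 RPKM in the downshift, 12.8 to 20.6 RPKM in the upshift and a difference of 0.12 ± 0.10 (adjusted p = 0.377).

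The samples at 0 h compare cells held for 16 h at 33 °C with cells held at 38 °C, and with 1 sample per group the ratios are given as a description, with no test. A pseudocount of 0.1 RPKM was added to exon levels before the log2 ratio, and 2-fold was taken as the rule of size, which 5.96% of genes passed. Smad6 was the 1 gene of the 9 past it, with a mean of its columns of 2.64 RPKM at 33 °C and 1.26 RPKM at 38 °C, a log2 ratio of 1.02. That ratio was 0.23 within the low-numbered pair, 1.41 within the high-numbered pair, and 0.69 with a pseudocount of 1 RPKM. Skil had 6.36 RPKM at 33 °C and 3.79 RPKM at 38 °C (0.73, with 0.20 and 1.15 within the series pairs). Id3 had 62.6 RPKM at 33 °C and 70.9 RPKM at 38 °C (-0.18), but its ratio was -1.1997 within the low-numbered pair and 0.47 within the high-numbered pair. Smad7 (0.42), Tgfbi (0.45), Id2 (0.37), Ski (0.26) and Tgif1 (0.22) also had higher levels at 33 °C in both pairs of series. Id1 (-0.17) was lower at 33 °C in both pairs.

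In the first hour after a shift no gene of the 9 moved by 2-fold, as 0.206% of all genes did after the downshift and 0.462% after the upshift. Smad7 moved furthest after the downshift, with a log2 ratio of 1 h to 0 h of 0.60 (0.61 in series 5 and 0.59 in series 11). In the first hour of the upshift the lowest ratios were those of Smad6 (-0.66), Skil (-0.56) and Smad7 (-0.49), and each was negative in both series. Id2, Ski, Skil and Smad7 stood above their 0 h level 1 h after cooling in both downshift series. They stood below it 1 h after warming in both upshift series. The steps of Ski were small, with log2 ratios of 0.09 after cooling and -0.07 after warming.

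Cells at the same temperature were also compared, 9 h after arriving against 16 h held there. At 33 °C, none of the 9 genes was past 2-fold between 9 h after the downshift and the held cells, against 2.42% of all genes. Tgfbi was nearer to it than any other with a higher level after the shift, at 24.3 RPKM 9 h after the downshift and 16.0 RPKM in held cells (log2 ratio 0.60), and Smad6 was lowest (-0.87, with 0.02 and -1.35 within the series pairs). At 38 °C, none was past 2-fold between 9 h after the upshift and the held cells, against 1.38% of all genes, and the ratios ran from -0.43 for Id1 to 0.66 for Smad6.

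Intron reads could be tested for 8 of the 9 genes. Their difference between the shifts was called for 7.34% of 9355 genes and for none of the 8. In the edgeR quasi-likelihood test, the only tool run on introns, 2 (Id2 and Ski) had an unadjusted p under 0.05. So did 2426 of all 9355 genes. The intron level of Tgfbi in the downshift was 0.199, 0.576, 0.547, 0.636 and 0.588 RPKM in series 5 and 0.888, 1.128, 1.23, 1.23 and 1.42 RPKM in series 11. In series 5 the intron level thus stood near its later value at 1 h, when the exon level had reached 5.83 of an eventual 13.9 RPKM. In the upshift the intron level of Tgfbi was 0.239, 0.171, 0.184, 0.226 and 0.427 RPKM in series 2 and 0.528, 0.364, 0.567, 0.776 and 0.967 RPKM in series 13, lowest at 1 h and highest at 9 h in both. The fitted intron change of Tgfbi was 0.83 ± 0.33 after the downshift (adjusted p = 0.189) and 0.74 ± 0.30 after the upshift (adjusted p = 0.228), and the difference was 0.09 ± 0.44 (adjusted p = 0.916). Id2 had an intron difference of 0.93 ± 0.30 (adjusted p = 0.089), Ski of -0.28 ± 0.12 (adjusted p = 0.158) and Smad7 of -0.13 ± 0.29 (adjusted p = 0.803).

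**Figure D3:**
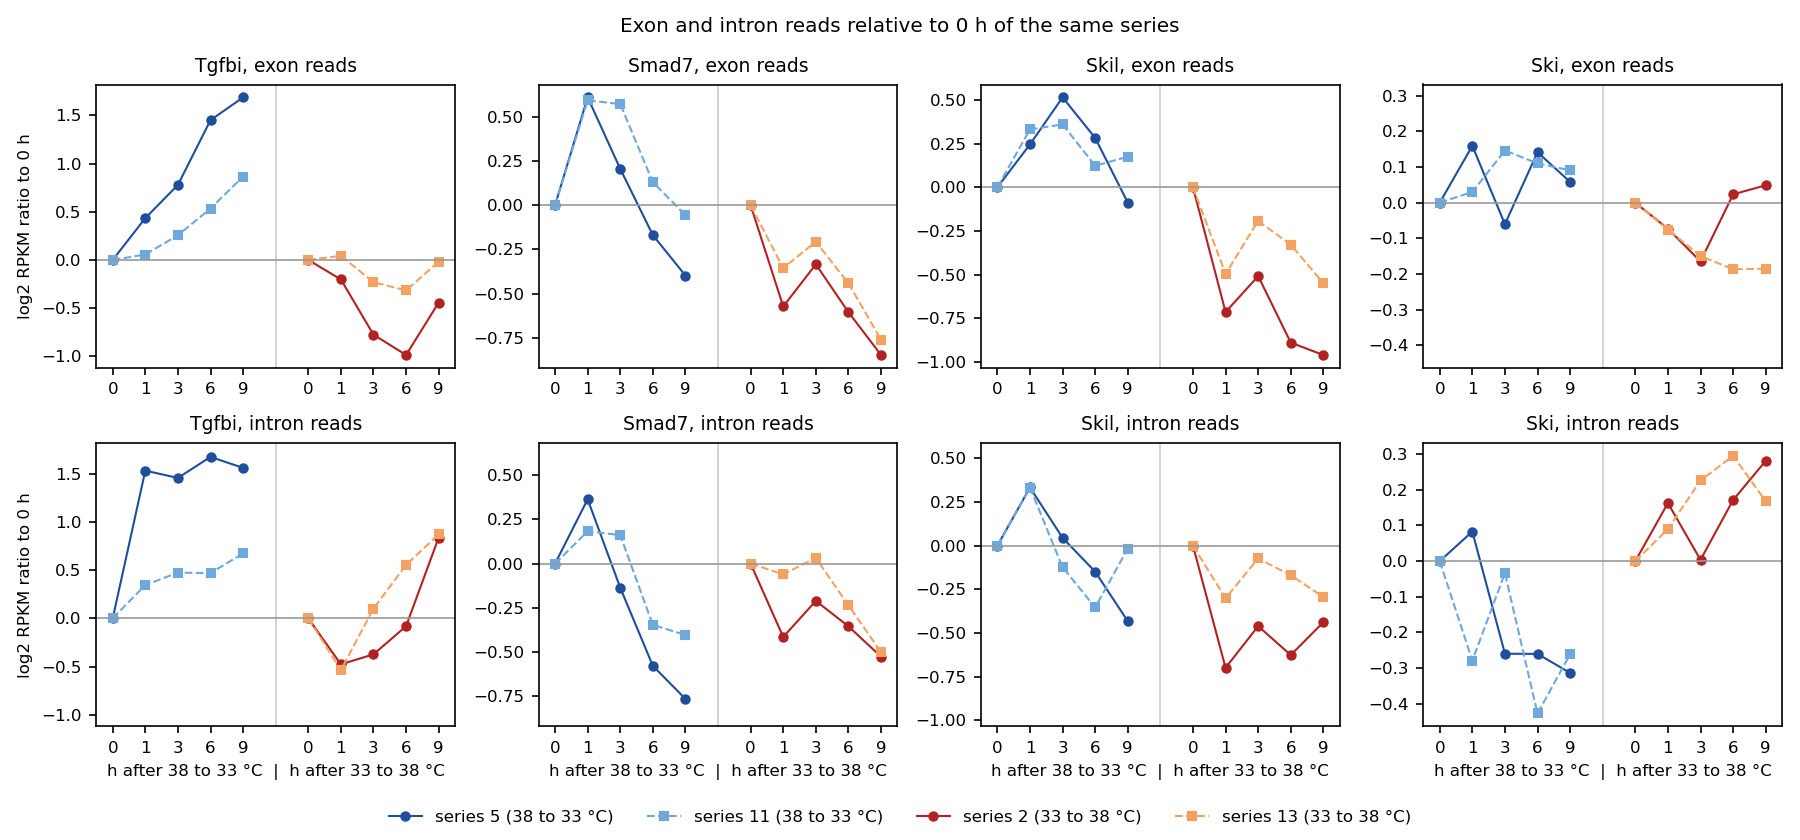
Exon (upper row) and intron (lower row) level of Tgfbi, Smad7, Skil and Ski as the log2 ratio to the 0 h column of the same series, with hours after the downshift on the left and after the upshift on the right of each panel; lines join the columns of a series, and the vertical scale differs between genes. Tgfbi intron reads end above 0 in all 4 series, while its exon reads end above 0 in the downshift series only, and Smad7 exon reads peak at 1 h of the downshift in both series.

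The ratio of exon to intron reads changes where mature and precursor RNA move apart. It differed between the shifts for 17.0% of genes, far more often with a positive sign (15.1%) than a negative one (1.83%), and the median over all genes was 0.28. Of the 8 genes, 1 was called, Ski, with a difference of 0.71 ± 0.16 (adjusted p = 0.0071), and the median of the 8 was 0.65. With the sample as a block, which pairs the exon and intron reads of a sample, 4 of the 8 were called, Ski, Tgfbi, Smad6 and Smad7. The 17.0% of all genes comes from the test without that block, so it is no background for these 4. No share of all genes is given for the block. The 4 of 8 therefore cannot be read as a result about these genes. Ski had 0.311, 0.3599, 0.355, 0.431 and 0.399 exon reads per intron read at 0, 1, 3, 6 and 9 h of the downshift, and 0.450, 0.393, 0.365, 0.357 and 0.366 in the upshift. The ratio of Ski was lowest in cells held at 38 °C and highest in cells held at 33 °C. Within the series pairs the Ski difference was 0.57 within the low-numbered pair (adjusted p = 0.198) and 0.81 within the high-numbered pair (adjusted p = 0.1102), and without the 0 h sample of the upshift it was 0.58 (adjusted p = 0.079).

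Tgfbi had 3.08, 2.22, 2.40, 3.02 and 3.46 exon reads per intron read in the downshift and 5.97, 8.40, 4.68, 3.25 and 2.94 in the upshift. Its ratio difference of 1.55 ± 0.52 lay at the threshold and was not called (adjusted p = 0.0501). It was called with DESeq2 size factors (1.55, adjusted p = 0.0493), with a block for the sample (1.57, adjusted p = 0.0325), on a scale of linear hours (1.77, adjusted p = 0.0250) and also without the 0 h sample of the upshift (2.50, adjusted p = 0.0070) or of the downshift (2.24, adjusted p = 0.0334). Smad6 had 1.16 ± 0.54 without the block (adjusted p = 0.152), and 1.14 and a call with it (adjusted p = 0.0106). Smad7 had 0.59 ± 0.54 without the block (adjusted p = 0.494), and 0.61 and a call with it (adjusted p = 0.0448). The ratio differences of Id2, Id3 and Tgif1 were -0.03 ± 0.33, -0.11 ± 0.27 and -0.02 ± 0.37, none of them called.

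Other genes of the pathway were grouped by role into 9 lists, of which 73 genes were expressed well enough to test. Between the shifts 26 of the 73 differed (35.6%), 20 with a positive and 6 with a negative sign, against 46.6% of all genes, so the pathway held no greater share of called genes than the transcriptome. All 26 had the same sign within the low-numbered and the high-numbered pair, and 15 were called in both. The 26 were picked by the sum of these same columns, so this match is not independent of the calls. With DESeq2 size factors all 26 kept their sign and 25 were called.

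Of 10 tested receptors 5 were called, a share near the 46.6% of all genes, and the list median was 0.42. All 5 had a positive sign, and 23.7% of all genes were called with that sign. Tgfbr3, the coreceptor betaglycan, had a difference of 1.25 ± 0.10 (adjusted p = 8.2e-05) and rose to 16.6 RPKM at 9 h of the downshift, against 10.3 RPKM at 0 h. The signalling receptors of TGF-beta, Tgfbr1 (0.98 ± 0.14) and Tgfbr2 (0.79 ± 0.16), were called in the same direction, as were Acvr2a and Bmpr1a. Rgma, a BMP coreceptor, had -0.64 ± 0.27 and was not called (adjusted p = 0.074). Of 4 tested ligands, 1 was called, Tgfb1, with 0.65 ± 0.21 (adjusted p = 0.031), while Inhba (0.37), Tgfb3 (-0.33) and Gdf11 (-0.01) were not. Of 5 signal-carrying SMADs, 1 was called, Smad3, which carries the TGF-beta signal, with 1.43 ± 0.37 (adjusted p = 0.011). Smad5 (-0.39), Smad4 (0.12) and Smad2 (0.06) were not.

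Among 8 tested antagonists and decoys 4 were called, all with a positive sign, against 46.6% of all genes called and 23.7% called with a positive sign: Fstl1 (1.30 ± 0.22), the decoy receptor Bambi (1.196 ± 0.34), the matrix proteoglycan Dcn (0.77 ± 0.18) and Nbl1. Among 10 genes of latent TGF-beta storage and release 4 were called with a positive sign, Thbs1, Fbn1, Ltbp2 and Itgav, a share below that of all genes called. Thbs1, whose protein thrombospondin can activate latent TGF-beta, had the largest difference in any list, 3.81 ± 0.34 (adjusted p = 9.6e-05). Its level was 27.7 RPKM at 9 h of the downshift and 11.3 RPKM at 0 h, and in the upshift it was 22.8 RPKM at 9 h and 100.5 RPKM at 0 h. Fbn1, fibrillin of the microfibrils, had 1.31 ± 0.13, Ltbp2, which fell after both shifts and less after the downshift (-0.49) than after the upshift (-1.03), had 0.54 ± 0.18, and the protease gene Furin had 0.41 ± 0.18 and was not called.

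Of 11 other intracellular regulators of SMADs 4 were called, in both directions. The ubiquitin ligase genes Smurf1 and Smurf2 had opposite signs, 0.93 ± 0.16 and -1.34 ± 0.28 (adjusted p = 0.0013 and 0.0035). Smurf2 was 22.8 RPKM at 9 h of the downshift and 38.7 RPKM at 0 h. The phosphatase gene Ppm1a (0.58 ± 0.12) and Wwp1 were also positive, and Tgif2, the paralog of Tgif1, had -0.96 ± 0.39 and was not called. Of 3 tested BMP targets outside the Id and Smad genes, Bambi was positive and Atoh8 negative (-1.55 ± 0.32, adjusted p = 0.0033), and Runx2 was not called (-0.33). Among 5 tested helix-loop-helix partners of the Id proteins, Tcf3, the gene of E12 and E47, was positive (0.98 ± 0.17, adjusted p = 0.0014) and Twist1 negative (-0.68 ± 0.15, adjusted p = 0.0042), while Tcf4 (0.31) and Twist2 (-0.04) were not called.

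**Figure D4:**
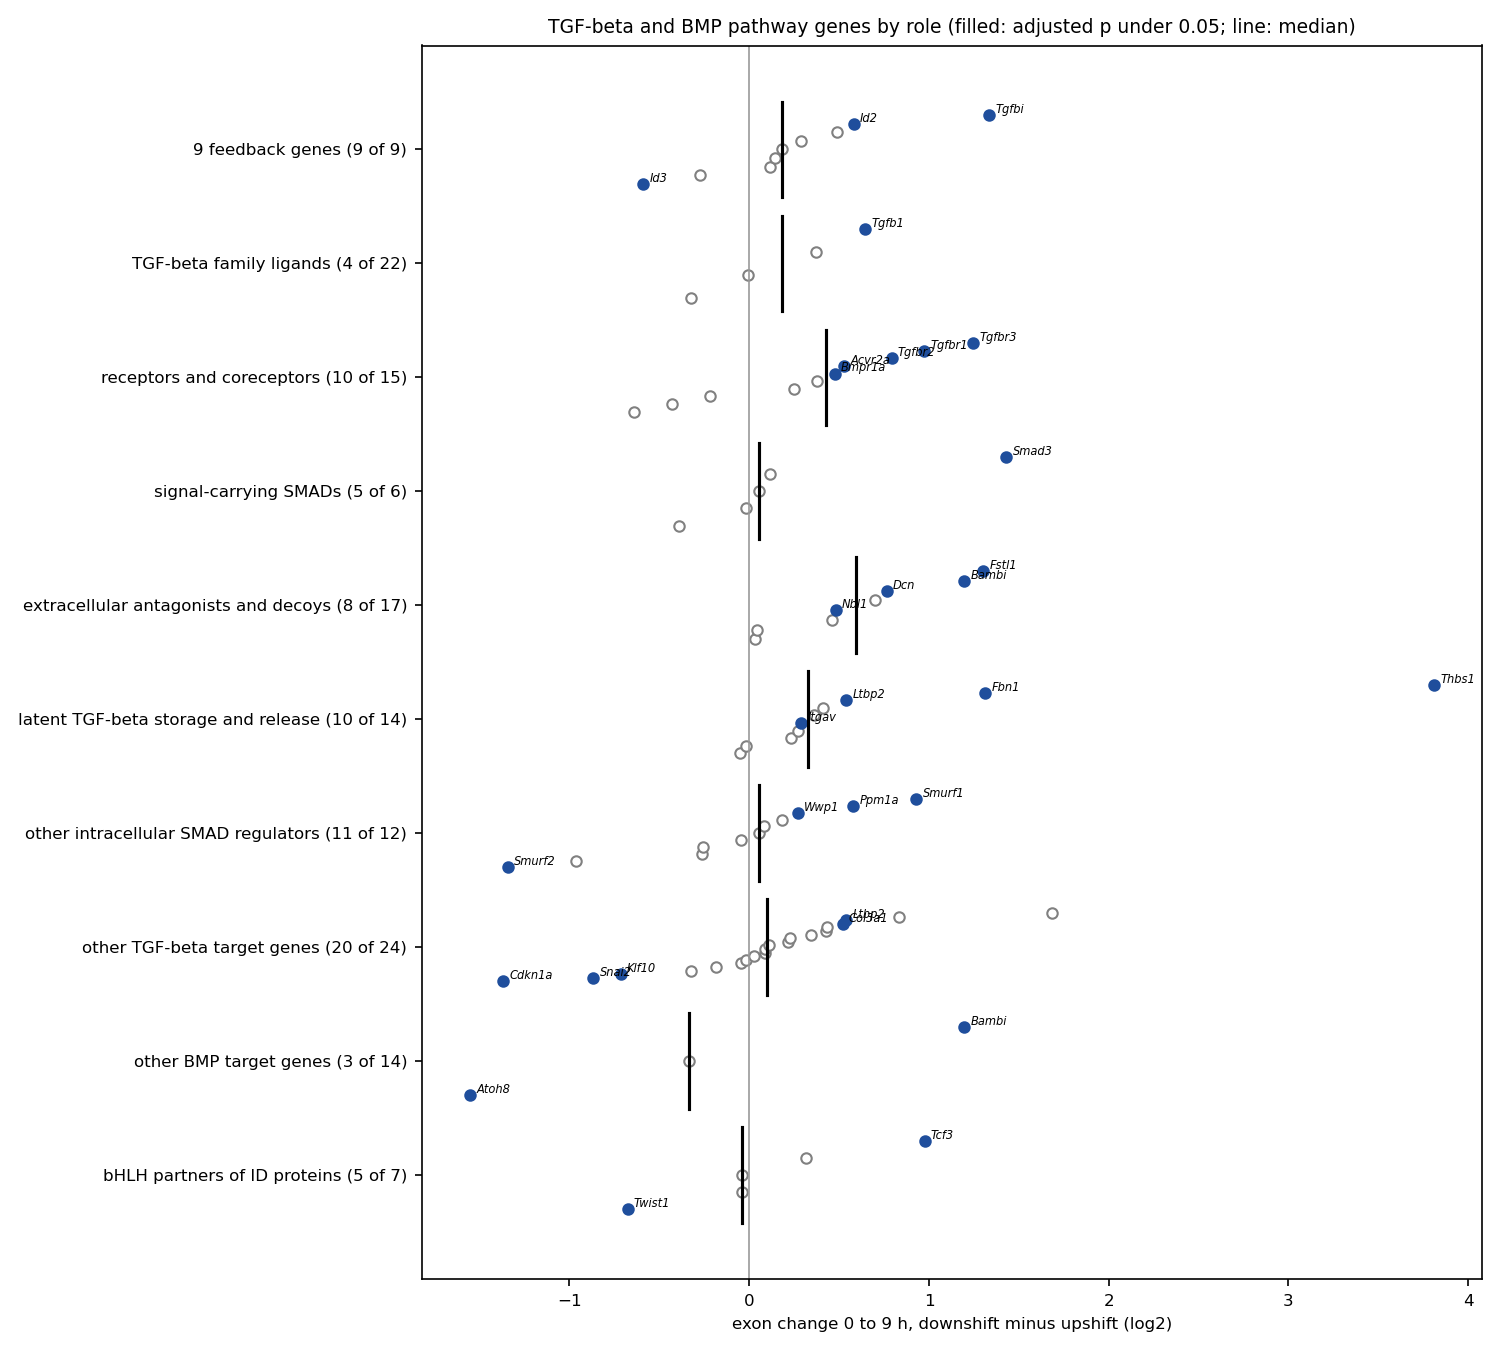
Difference between the shifts (downshift minus upshift, log2) in the fitted exon change from 0 to 9 h for the 9 genes and for the tested genes of 9 pathway lists, with tested and listed numbers in brackets; each point is a gene, filled and named where the adjusted p is under 0.05, and the black line is the list median. Thbs1 lies far to the right (3.81), and all 5 called receptors lie right of 0.

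Of 20 tested TGF-beta targets, 8 fell after the downshift and 9 after the upshift. Over all genes, 16.2% fell after the downshift, and 33.2% were called in either direction after the upshift. Of the 20 targets 6 fell after both, namely Acta2, Tagln, Timp1, Ltbp2, Lox and Col1a1, a pattern picked out after the values were seen. Over all genes, 0.481% fell after both shifts. Acta2, smooth muscle actin, had -1.41 ± 0.35 after the downshift (adjusted p = 0.014) and -1.44 ± 0.35 after the upshift (adjusted p = 0.013). Tagln, another contractile gene, had -1.21 ± 0.32 after the downshift (adjusted p = 0.019) and -1.63 ± 0.32 after the upshift (adjusted p = 0.0048). All 6 were negative after both shifts within each pair of series. All 6 were called within the low-numbered pair, and 2, Acta2 and Tagln, within the high-numbered pair. The 6 were picked by the sum of these same columns, so the match of signs is not independent of the choice. Ctgf was -0.67 ± 0.72 after the downshift (adjusted p = 0.501) and -2.36 ± 0.68 after the upshift (adjusted p = 0.025). Time since seeding runs along with time since the shift in both courses, and their parts cannot be told apart. Between the shifts 5 of the 20 targets differed, against 46.6% of all genes. Col3a1 and Ltbp2 had a positive sign and Cdkn1a (-1.37 ± 0.31), Snai2 (-0.87 ± 0.19) and Klf10 a negative one, and the list median was 0.10.

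Genes with the exon profile nearest to each of the 9 were found by the root mean square difference of log2 RPKM, each profile centred on its own mean, over the 10 samples. For Tgfbi they were Mtmr2 and Acsl4, both at 0.09, where the profile of Tgfbi itself had a root mean square of 0.33. For Id2 they were Nfkbib and Fbxw17 (both 0.06), for Id3 Scnm1-ps (0.05) and Zfp324 (0.06), and for Id1 Zcchc4 (0.10). Smad7 was nearest to Dlx2 (0.14) and Vps37b (0.15), Smad6 to Bola1 (0.14) and Galntl4 (0.16), and Skil to Zfp828 (0.08) and Bdnf (0.10). Ski was nearest to Ppp2r1b and BC029722 (both 0.03) and Tgif1 to Cnst and Mtmr10 (both 0.07). None of these neighbours was a gene of the pathway lists.

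In the genome (GRCm38, GENCODE M21) none of the 9 genes overlaps another annotated gene, so reads of a neighbour are not counted in them by position. Tgfbi lies on chromosome 13 (56609523 to 56639562, plus strand), Id2 on chromosome 12 (25093799 to 25097140, minus strand), Id3 on chromosome 4 (136143497 to 136145755, plus strand) and Ski also on chromosome 4 (155154075 to 155222592, minus strand). Smad7 lies on chromosome 18 (75367529 to 75395935, plus strand), Smad6 on chromosome 9 (63953076 to 64022059, minus strand), Skil on chromosome 3 (31095058 to 31122577, plus strand) and Tgif1 on chromosome 17 (70844205 to 70853546, minus strand). Introns made up most of Ski (62956 bases of intron, 5562 of exon) and Smad6 (65779 and 3205), whereas Id3 had 468 bases of intron and 1791 of exon.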

How the data were processed

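Per the labels, total RNA of NIH3T3 cells was treated with DNase, depleted of ribosomal RNA and sequenced as paired-end, strand-specific libraries. The submitters' processing notes name STAR, bedtools and the mm10 build, without versions, and no source used here gives the counting rule. The deposited values are estimated counts per gene (22.9% of exon values above 0 are whole within 1e-06), although the tables are named for RPKM, and were rounded to whole numbers. RPKM was computed here from TMM-scaled exon totals and GENCODE M21 lengths, found for 95.3% of genes.

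Columns of series 2, 5, 11 and 13 were summed per sample and fitted in edgeR 4.0.16 (R 4.3.3), with offsets that correct each gene for uneven shares of the series, and with 1 intercept and 1 slope per course on log2(h + 1). A change is the fitted slope multiplied by the log2 of 10, and its SE is its size divided by the square root of F. Where a 0 h or 9 h sample was left out, the slope over the remaining times was still scaled to 0 to 9 h. Tested genes had an average of 1 exon RPKM or more (10178 genes), and intron and ratio tests also required 0.05 intron RPKM (9355 genes). With 1 sample per time, the residual spread holds biological and technical scatter and departure from a line together, and p-values measure only that spread. Series 10 entered 1 alternative.

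The genes and the lists were chosen with earlier results of these data known. Named list genes are up to 4 per list with the largest difference, plus called genes and those of a pattern chosen after the values were seen. A few genes that the rules would name are not reported here. Alternatives were DESeq2 size factors, the DESeq2 1.42.0 Wald test, other filters, time scales and blocks, each series pair alone and leaving out each sample. Ldlrad4 and Adgre1 were not found in the tables by symbol. The promoters are from RefSeq, GRCm38.p6.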

Additional observations from a re-analysis of the deposited data

Results flagged for a closer look

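The upshift change of Id3 differed between the column series, by 1.37 ± 0.23 on the log2 scale (series 2 minus series 13, edgeR quasi-likelihood test, adjusted p = 0.0036), with a rise in series 2 (adjusted p = 6.6e-05) and -0.17 ± 0.16 in series 13. That of Id2 differed by 0.76 ± 0.20 (adjusted p = 0.042), with 0.20 ± 0.14 in series 2 and -0.56 ± 0.14 in series 13. In both genes the columns lay furthest apart at 0 h, and they were near each other at 9 h. The test takes columns of the same sample as separate libraries and was added after the values had been seen, and the cause was not tested.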

How the results depend on the processing

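No gene of the 9 changed sign with a call under any alternative. Of the single-gene values with a test, 854 kept their side of the threshold, 42 gained a call and 15 lost one. Of those without a test, 64 moved by less than the counting noise of the summed reads and 71 by more. The spread between columns did not enter that yardstick. For most changes below the cause was not tested.

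Downshift genes of the 9 called (1 as reported) were 3 within the low-numbered pair, 2 by the DESeq2 Wald test and 0 with 0 h set against 3, 6 and 9 h, and 1 to 2 without any one sample. All genes called were 3271 as reported, 2309 within the low-numbered pair and 3756 by the Wald test. They were 2134 within the high-numbered pair, 336 with the 0 h contrast and 1568 (without downshift 0 h) to 3578 without any one sample. Upshift genes of the 9 called (0 as reported) were 1 with DESeq2 size factors, with linear hours and by the Wald test, 2 within each series pair, 3 without the offset and with columns as libraries, 4 with series 10 included and 0 to 2 without any one sample. All genes called, of 10178, were 3384 as reported, 3395 with DESeq2 size factors, 2722 with linear hours and 3859 by the Wald test. They were 2996 within the low-numbered pair, 2298 within the high-numbered pair and 3471 without the offset. With columns as libraries they were 4142, and with series 10 included 4135. They were 605 with the 0 h contrast and 1896 (without upshift 0 h) to 3529 without any one sample. Leaving out a sample gave calls after the upshift for Id2 (-0.34, adjusted p = 0.028) and Skil (-0.62, adjusted p = 0.042) without upshift 1 h, for Tgif1 (-0.48, adjusted p = 0.011) without upshift 3 h, for Smad7 (-0.62, adjusted p = 0.013) and Tgif1 (-0.46, adjusted p = 0.041) without downshift 0 h and for Id3 (0.31, adjusted p = 0.042) without downshift 3 h. Id2 was called after the downshift without upshift 0 h or 1 h (0.34 in each, adjusted p = 0.027 and 0.021). For the difference between the shifts, 1 of the 9 was called with linear hours, 1 to 3 without any one sample, and 2527 genes in all with the 0 h contrast. Genes called in all were 4272 with linear hours and 3688 to 4901 without any one sample. With linear hours the differences of Id2 (0.48, adjusted p = 0.087) and Id3 (-0.50, adjusted p = 0.075) were not called, nor was that of Id3 without the 6 h sample of the upshift (-0.55, adjusted p = 0.052) or the 0 h sample of the downshift (-0.34, adjusted p = 0.262).

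Intron differences called over all genes were 326 within the high-numbered pair, 133 with linear hours, 2089 with the 0 h contrast and 155 (without downshift 0 h) to 1088 (without upshift 1 h) when any one sample was left out. The time point, which pairs samples of the 2 courses only by the clock, gave 0 intron calls as a replicate block, and the Id2 exon difference was then 0.57 (adjusted p = 0.071). Ratio differences of the 9 (1 as reported) were 4 with the sample as a block, 2 with DESeq2 size factors and with linear hours, 0 within each series pair and with the 0 h contrast, and 1 to 2 without any one sample. Over all genes they were 567 within the low-numbered pair, 334 within the high-numbered pair, 750 with the 0 h contrast and 824 (without downshift 6 h) to 1613 without any one sample. No count over all genes is given for the block. Bends after the downshift among the 9 were 1 within the low-numbered pair and 1 with columns as libraries. Over all genes they were 124 with no filter, 147 within the low-numbered pair, 3 within the high-numbered pair and 183 with columns as libraries. Upshift bends were 72 within the high-numbered pair and 518 with columns as libraries.

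Of the values without a test, genes of the 9 past 2-fold between 33 and 38 °C were 2 within each series pair and 0 with a pseudocount of 1 RPKM, and genes in all 1050 within the low-numbered pair and 354 with that pseudocount. In the first hour, genes past 2-fold within the low-numbered pair, within the high-numbered pair and with that pseudocount were 63, 44 and 11 after the downshift and 85, 79 and 23 after the upshift. At 33 °C, 9 h against held, they were 510, 389 and 135, and 1 of the 9 passed within the high-numbered pair. At 38 °C they were 526 within the high-numbered pair and 67 with that pseudocount. Low counts limit Smad6, whose exon columns held as few as 98 reads.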
